A study of Mus musculus with 10 samples.

Results

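Interferon regulatory factors (IRFs) and signal transducers and activators of transcription (STATs) are the transcription factors through which cells answer interferons and many cytokines. The 10 genes described here, Irf2, Irf3, Irf5, Irf7, Irf8, Irf9, Stat2, Stat3, Stat4 and Stat6, were found by gene symbol among the 55487 distinct genes of the count table, and all 10 passed the filter on low counts that left 20684 genes for testing. From the rest of both families 4 genes, Irf1, Irf4, Stat5a and Stat5b, are set beside them. The tissue was the complex of retinal pigment epithelium (RPE) and choroid from mouse eyes. All 10 libraries came from iDTR mice, which carry HBEGF, the diphtheria toxin receptor, at the Rosa26 locus on a C57BL/6 background in a form that Cre switches on, and diphtheria toxin was given intraperitoneally to both groups. The 5 samples called ADQ also carried adiponectin-Cre, which is active in adiponectin-expressing fat cells, and the series description gives them toxin daily over 7 weeks. The 5 control samples carried iDTR without Cre; the description gives no toxin schedule for them. The labels give no age and do not say that each sample is a separate animal, so a p-value here reflects only sample-to-sample spread, part of which may be technical.

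IRFs share a DNA-binding domain that reads repeats of the letters GAAA, the interferon-stimulated response element (ISRE). STATs wait in the cytoplasm until Janus kinases at a cytokine receptor phosphorylate them, and most STAT dimers then bind a palindrome called the gamma-activated site (GAS). Type I interferons act through ISGF3, a complex that holds STAT2 and IRF9 and binds the ISRE, whereas the answer to interferon gamma runs mainly through the GAS. In the eye, resident macrophages and the RPE itself can both respond to interferons.

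Because several of these genes are themselves induced by interferons, the sequences just before their transcription starts were searched for both motifs. RefSeq windows (GRCm38.p6) of 300 bases, from 250 before to 50 after a start, were found for all 10 genes (13 windows), and for the 4 others. The motifs were GAAANNGAAA for the ISRE and TTCNNNGAA for the GAS, on both strands, and no 2 matches in these windows overlapped. The ISRE letters occurred in 3.44% and the GAS letters in 8.30% of all 32851 windows of that length. Among the 13 windows 3 held the ISRE letters, in Irf2, Stat2 and the downstream start of Stat4, and 2 held the GAS letters, in Irf2 and Irf8. The Irf8 window held a pair of GAS matches, at positions -171 to -163 and -153 to -145 relative to the start, and the first window of Irf1 held 1. The stretches with matches follow, each on the strand of the gene, which is the plus strand in all 5, with the matching letters in capitals.
Irf2, chr8:46739495-46739549: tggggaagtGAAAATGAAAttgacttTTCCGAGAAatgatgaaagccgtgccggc
Irf8, chr8:120736167-120736233: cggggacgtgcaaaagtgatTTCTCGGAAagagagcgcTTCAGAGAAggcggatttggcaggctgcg
Stat2, chr10:128270256-128270305: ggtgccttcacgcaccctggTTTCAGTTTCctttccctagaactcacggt
Stat4, chr1:52008123-52008172: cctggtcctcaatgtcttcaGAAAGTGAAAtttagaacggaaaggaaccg
Irf1, chr11:53769904-53769952: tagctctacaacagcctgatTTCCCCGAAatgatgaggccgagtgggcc
Stat2 shows the ISRE as its reverse complement. These are matches of letters, not measured binding, and a window without a match says nothing about the factors.

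Libraries held 43591245 (ADQ 4) to 64087660 (ADQ 5) counts. RPE markers were abundant in every library, with a summed level of 29956 to 43704 CPM (counts scaled to library size with TMM factors) in control and 25748 to 38602 in ADQ. Immune cell markers were measured as well. The summed level of 5 pan-leukocyte markers was 359 to 506 CPM in control and 522 to 661 in ADQ, and Ptprc, which encodes CD45, rose 1.78-fold (edgeR adjusted p = 0.0139, and 0.0553 without control 4). Cd53 rose 1.35-fold (edgeR adjusted p = 0.0341, and as high as 0.0968 with single libraries left out). The other 3, Cd52, Laptm5 and Coro1a, did not pass with edgeR (log2 fold changes 1.10, 0.37 and 0.35). Over all genes tested 0.740% rose. All 5 were higher at an unadjusted p under 0.05, which 13.8% of all genes had. With DESeq2 4 passed and with limma voom and quality weights 4, against 3.34% and 3.21% of all genes. The sum of 12 macrophage and microglia markers ran from 5991 to 8271 CPM in control and from 6542 to 10310.3 in ADQ. Most of that sum was a single gene, Lyz2, whose control libraries spanned 4151 to 6135 CPM and whose ADQ libraries spanned 4708 to 7407. For 8 dendritic cell markers the sums ran from 15.7 to 21.5 and from 24.8 to 30.6. Those of 10 T and NK cell markers ran from 26.0 to 90.7 and from 93.0 to 130.4. Control 5 had the highest T and NK cell sum of the controls. Rod photoreceptor markers summed to 304 to 1711 CPM in control and 306 to 3408 in ADQ, and skeletal muscle markers to 971 to 2389 and 299 to 1611. B cell markers summed to 3.33 to 9.06 CPM in control and 5.05 to 8.84 in ADQ. The Cre driver gene Adipoq had 0 to 7.93 CPM in control, with control 5 at 0, and at 0.176 to 1.67 in ADQ. In bulk tissue, more cells of a type and more RNA per cell cannot be told apart.

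Of the 10 genes 3, Stat2, Irf9 and Irf8, rose in ADQ and none fell (edgeR's quasi-likelihood test, Benjamini-Hochberg adjusted p under 0.05 over all genes tested). Over all 20684 genes 0.740% rose and 0.087% fell, 0.827% in either direction. For 6 of the 10, Irf2, Irf5, Irf8, Irf9, Stat2 and Stat4, every ADQ library lay above every control library, which held for 2.09% of all genes tested, and none lay wholly below, against 1.07%. The log2 fold change was above 0 in 9 of 10, with a median of 0.44 against 0.01 over all genes, and Irf3 was the gene below 0. The number that rose depended on the libraries and the tool. It was 5 with DESeq2, where 3.34% of genes passed, and 7 with limma voom and quality weights, where 3.21% passed. With the replicate number as a block it was 5, where 3.36% passed. It was 5 without control 5, where 1.70% passed, and 1 (Stat2) without control 1 or without ADQ 4. Control 5 was the highest control for 7 of the 10 genes, among them Irf3, the gene below 0. The share of all genes for which this holds was not computed.

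**Figure D1:**
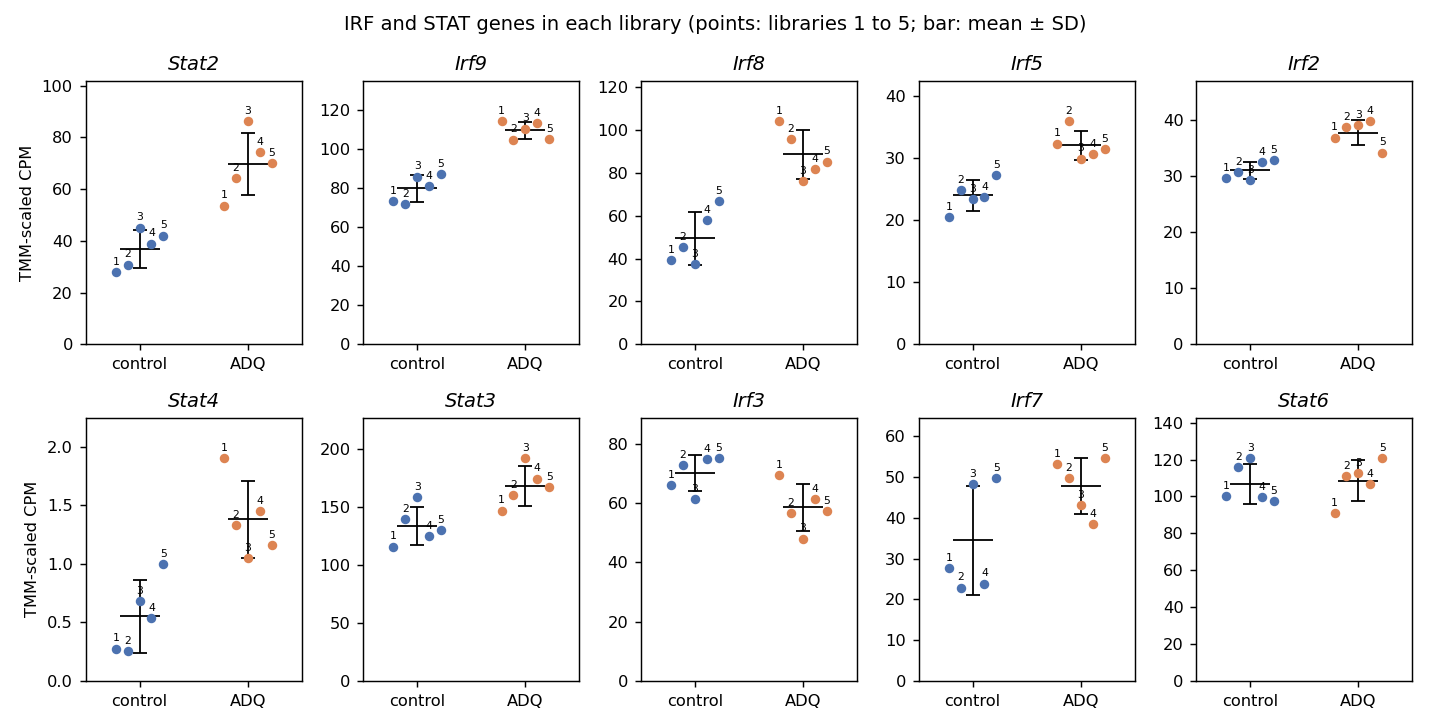
TMM-scaled CPM (vertical axes, from 0) of the 10 IRF and STAT genes in 5 control and 5 ADQ libraries, ordered by adjusted p; points are libraries with their number, the bar and whiskers are mean ± SD. In Stat2, Irf9, Irf8, Irf5, Irf2 and Stat4 all ADQ points lie above all control points. The ranges of Stat6 overlap, with ADQ 1 below and ADQ 5 just above all control points.

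Stat2 and Irf9 encode parts of ISGF3, which is used by type I and type III interferon signalling. Stat2 (ENSMUSG00000040033, chromosome 10, 128270559 to 128292849, plus strand, GRCm38) was at 27.8, 30.8, 45.1, 38.9 and 42.0 CPM in controls 1 to 5 and at 53.6, 64.4, 86.3, 74.4 and 70.04 CPM in ADQ 1 to 5. All ADQ libraries lay above all controls, with ADQ 1 the lowest of them and control 3 the highest control. The means were 36.9 ± 7.37 and 69.7 ± 12.1 CPM (SD, n = 5 each), a rise of 1.89-fold (log2 fold change 0.92, SE 0.15, edgeR adjusted p = 0.011). Stat2 kept its call without any single library, with an adjusted p of at most 0.04. In its promoter window the ISRE letters shown above lie at positions -222 to -213.

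Irf9, the DNA-binding part of ISGF3 (ENSMUSG00000002325, chromosome 14, 55603571 to 55610030, plus strand), was at 73.0, 71.7, 85.7, 80.9 and 87.0 CPM in controls 1 to 5. In ADQ 1 to 5 it was at 114, 105, 110.3, 113 and 105 CPM, so that the groups did not overlap and the ADQ libraries lay close together. The means were 79.7 ± 7.06 and 109 ± 4.49 CPM (SD, n = 5 each), a rise of 1.37-fold (log2 fold change 0.46, SE 0.08, edgeR adjusted p = 0.0159). The size of the rise changed little when a library was left out (0.42 to 0.49), but the adjusted p was 0.0533 without control 1, 0.0553 without control 4 and 0.0563 without ADQ 4. Exons of Irf9 share 123 bases with Rnf31, which lies on the same strand and had a log2 fold change of 0.20 (adjusted p = 0.353). Neither Irf9 window held either motif.

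Irf8 and Irf5 are most active in myeloid cells: IRF8 directs monocyte and dendritic cell development and IRF5 acts downstream of Toll-like receptors. Irf8 (ENSMUSG00000041515, chromosome 8, 120736358 to 120756694, plus strand) was at 39.4, 45.5, 37.3, 58.0 and 66.6 CPM in controls 1 to 5 and at 104.1, 95.7, 76.1, 81.7 and 85.3 CPM in ADQ 1 to 5. The groups did not overlap, and control 5 was the control nearest to ADQ. The means were 49.4 ± 12.6 and 88.6 ± 11.3 CPM (SD, n = 5 each), a rise of 1.79-fold (log2 fold change 0.84, SE 0.15, edgeR adjusted p = 0.022). The call was lost without control 1 (adjusted p = 0.0598), control 2 (0.0559), ADQ 1 (0.0504), ADQ 2 (0.0759) or ADQ 4 (0.0509), while the log2 fold change stayed between 0.76 and 0.97.

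Markers of cells that express Irf8 were counted beside it. Of 12 macrophage and microglia markers 2 rose: Aif1, which encodes IBA1, rose 1.89-fold (adjusted p = 0.00756), and Adgre1, which encodes F4/80, rose 1.38-fold, but the call was lost in each of the 10 leave-one-out fits and with RLE scaling (adjusted p = 0.0476, and 0.0538 to 0.144 in those fits). The other 10 did not pass with edgeR. Over all genes tested 0.740% rose. All 12 had a log2 fold change above 0 (median 0.30), and 5 had an unadjusted p under 0.05, against 13.8% of all genes. With DESeq2 3 passed and with voom 2, against 3.34% and 3.21% of all genes. Among those not called, Cx3cr1, Fcgr1 and C1qa had log2 fold changes of 0.56, 0.34 and 0.33. Csf1r, Cd68 and Mertk were nearest 0, at 0.02, 0.03 and 0.05. Of 8 dendritic cell markers 6 had a log2 fold change above 0. Flt3 (1.26, edgeR adjusted p = 0.0547) and Clec9a (0.95, adjusted p = 0.149) did not pass, nor did Zbtb46, Batf3 and Siglech (0.27, 0.22 and 0.03). Cd209a and Ccr9 had log2 fold changes of -0.70 and -0.15 and did not pass. Of the 8, 1 rose, Xcr1, the chemokine receptor of cross-presenting dendritic cells, from 0.835 ± 0.446 CPM in the controls to 3.59 ± 0.68 (SD, n = 5; 4.30-fold, edgeR adjusted p = 0.0141; 0.0577 without control 4 and 0.0509 without ADQ 2). Set against the mean of the 12 macrophage markers within each library, the log2 level of Irf8 was -1.30 ± 0.31 in control and -0.74 ± 0.03 in ADQ (SD, n = 5). The difference of 0.56 was the same in direction in every leave-one-out setting (0.49 to 0.66; exact two-sided permutation p = 0.00794, the smallest possible with 252 assignments; adjusted p = 0.0185 over the 7 ratios computed, of which 6 are reported). Without ADQ 2, 3, 4 or 5 that adjusted p was 0.0556. The 5 ADQ values ran from -0.78 to -0.69, and the control values from -1.61 to -0.93. What part dendritic cells have in the level of Irf8 was not tested. Whether RPE cells add to macrophage markers such as Mertk was not tested either.

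Irf5 (ENSMUSG00000029771, chromosome 6, 29526625 to 29541871, plus strand) was at 20.6, 24.9, 23.4, 23.8 and 27.3 CPM in controls 1 to 5 and at 32.4, 36.0, 29.9, 30.6 and 31.5 CPM in ADQ 1 to 5. The groups did not overlap, but the gene did not pass over all genes: its means were 24.0 ± 2.46 and 32.1 ± 2.36 CPM (n = 5 each, ± SD; log2 fold change 0.42, SE 0.09, edgeR adjusted p = 0.0547). It passed with DESeq2 (adjusted p = 0.00701), with voom (0.0203), with library size alone (0.0396), with a stricter count filter (0.0462) and without control 5 (0.0205). The log2 ratio of Irf5 to the macrophage markers was -2.30 ± 0.13 in control and -2.19 ± 0.10 in ADQ (SD, n = 5; difference 0.11, exact permutation p = 0.175, adjusted p = 0.204), and the groups overlapped. Without ADQ 1 the difference was 0.15 (adjusted p = 0.0417). Tnpo3, on the opposite strand, shares 411 bases of exon with it, 14.1% of the exon length of Irf5, and had a log2 fold change of 0.11 (adjusted p = 0.748); whether counting used strand is not stated in the sources available.

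Irf3 and Irf7 are close relatives that are phosphorylated by TBK1 and IKK-epsilon or, for IRF7, downstream of MyD88, and that switch on interferon genes. Irf3 is present in most cells without induction, while Irf7 is itself strongly induced by ISGF3. Irf7 (ENSMUSG00000025498, chromosome 7, 141262706 to 141266481, minus strand) was at 27.7, 22.9, 48.3, 23.9 and 49.8 CPM in controls 1 to 5 and at 53.3, 49.8, 43.1, 38.6 and 54.7 CPM in ADQ 1 to 5. The controls fell into a low set (1, 2 and 4) and a high set (3 and 5), and the high set lay within the ADQ range. Controls 3 and 5 also had the highest sums of 4 corneal and conjunctival epithelial markers, 1549.5 and 483 CPM, against 117, 0.947 and 51.1 in controls 1, 2 and 4 and at most 1.20 in ADQ; the part of these cells in the level of Irf7 was not tested. The means were 34.5 ± 13.4 and 47.9 ± 6.88 CPM (n = 5 each, ± SD; log2 fold change 0.47, SE 0.23, edgeR adjusted p = 0.393), and the gene passed under none of the 19 alternatives run (adjusted p 0.0914 to 0.616). Its coefficient of variation in control was 38.8%, the largest of the 10 genes after the 56.0% of Stat4.

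Irf3 (ENSMUSG00000003184, chromosome 7, 44997648 to 45002848, plus strand) was the gene with the opposite sign. It was at 66.0, 72.8, 61.5, 74.9 and 75.3 CPM in controls 1 to 5 and at 69.6, 56.6, 48.0, 61.3 and 57.4 CPM in ADQ 1 to 5. ADQ 1 lay within the control range and the other 4 ADQ libraries lay below all controls. The means were 70.1 ± 6.08 and 58.6 ± 7.84 CPM (n = 5 each, ± SD; log2 fold change -0.26, 95% interval -0.48 to -0.04, edgeR adjusted p = 0.285), and the gene passed under no alternative (adjusted p 0.0858 to 0.522). The log2 ratio of Irf7 to Irf3 was -1.09 ± 0.60 in control and -0.29 ± 0.24 in ADQ (SD, n = 5; difference 0.80, exact permutation p = 0.0397, adjusted p = 0.0694). That difference passed when control 3 (0.99, adjusted p = 0.0278) or control 5 (0.93, adjusted p = 0.0333) was left out.

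Irf1 and Irf2 bind the same sites, IRF1 as an inducible activator and IRF2 mainly as its competitor. Irf2 (ENSMUSG00000031627, chromosome 8, 46739732 to 46847458, plus strand) was at 29.6, 30.6, 29.2, 32.4 and 32.7 CPM in controls 1 to 5 and at 36.8, 38.7, 39.0, 39.7 and 34.1 CPM in ADQ 1 to 5. The groups did not overlap and both were narrow, with means of 30.9 ± 1.59 and 37.7 ± 2.26 CPM (SD, n = 5). The difference was small and did not pass over all genes (log2 fold change 0.28, SE 0.08, edgeR adjusted p = 0.118), though it did with voom (adjusted p = 0.0334). Irf1 rose 2.07-fold, from 55.05 ± 12.6 to 114 ± 4.11 CPM (adjusted p = 0.00195). The log2 ratio of Irf1 to Irf2 was 0.79 ± 0.27 in control and 1.59 ± 0.07 in ADQ (SD, n = 5; difference 0.79, exact permutation p = 0.00794, adjusted p = 0.0185; 0.0556 without ADQ 4 or ADQ 5). All 5 ADQ ratios, 1.48 to 1.67, exceeded the control ratios, 0.50 to 1.14.

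**Figure D2:**
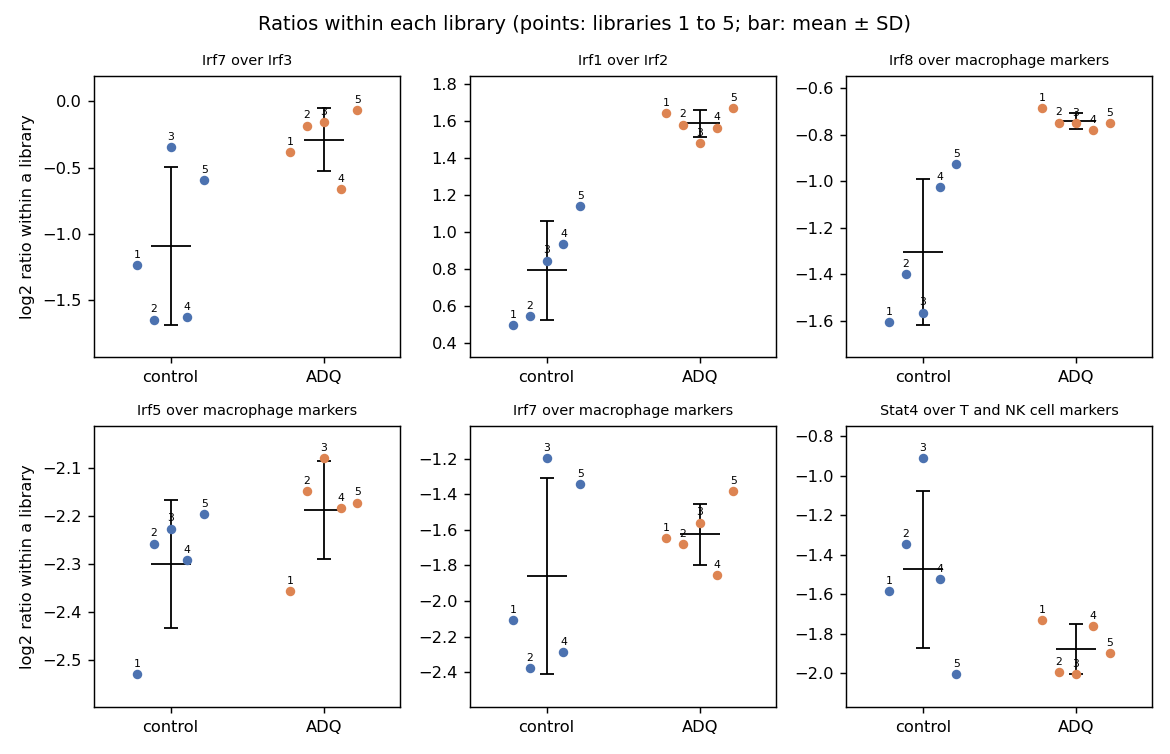
Log2 ratios within each library (vertical axes) for 6 ratios, with 5 control and 5 ADQ libraries as numbered points and mean ± SD as bars; marker lists enter as the mean of their log2 CPM. The groups do not overlap for Irf1 over Irf2 and Irf8 over macrophage markers.

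Stat4, Stat3 and Stat6 serve different cytokines. Stat4 carries the IL-12 signal in T and NK cells and was the lowest of the 10 genes, with 12 to 88 counts per library. It (ENSMUSG00000062939, chromosome 1, 51987148 to 52107189, plus strand) was at 0.275, 0.257, 0.683, 0.539 and 0.998 CPM in controls 1 to 5 and at 1.90, 1.33, 1.05, 1.45 and 1.16 CPM in ADQ 1 to 5. The groups did not overlap, and control 5 and ADQ 3 were the nearest libraries across them. The means were 0.55 ± 0.308 and 1.38 ± 0.332 CPM (n = 5 each, ± SD; log2 fold change 1.32, SE 0.37, edgeR adjusted p = 0.128). It passed without control 5 (log2 fold change 1.64, adjusted p = 0.0387), with DESeq2 (1.31, adjusted p = 0.0168) and with voom (1.65, adjusted p = 0.0199).

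Among 10 T and NK cell markers the median log2 fold change was 1.59. None passed with edgeR, although 9 had an unadjusted p under 0.05, 2 passed with DESeq2 and 7 with voom. Over all genes those shares were 13.8%, 3.34% and 3.21%. Ncr1 was the marker that had no count in at least 1 library. The log2 level of Stat4 against their mean was -1.47 ± 0.40 in control and -1.88 ± 0.13 in ADQ (SD, n = 5; difference -0.40, exact permutation p = 0.0556, adjusted p = 0.0778). Control 5, at -2.003, lay within the ADQ range of -2.005 to -1.73, and without it the difference was -0.54 (adjusted p = 0.0139). With a pseudocount of 0.1 in place of 0.5 the difference was -0.18 (adjusted p = 0.556). Reads of Stat4 may be shared with Gm28177, a noncoding transcript that overlaps 1033 bases of its exons (26.7%) on the same strand; Gm28177 itself had 3 to 16 counts per library.

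Stat3 (ENSMUSG00000004040, chromosome 11, 100885098 to 100939540, minus strand), which carries signals of the IL-6 family and IL-10, was at 116, 139.5, 158, 124 and 130 CPM in controls 1 to 5. In ADQ 1 to 5 it was at 147, 159.7, 192, 174 and 167 CPM, and only ADQ 1 lay below the highest control. The means were 133 ± 16.3 and 168 ± 16.9 CPM (n = 5 each, ± SD; log2 fold change 0.33, SE 0.10, edgeR adjusted p = 0.169), and the gene passed with voom (adjusted p = 0.0352). Stat2 and Stat3 had the same highest and lowest libraries in both groups: control 3 and ADQ 3 were highest, control 1 and ADQ 1 lowest. Stat6 (ENSMUSG00000002147, chromosome 10, 127642986 to 127660957, plus strand), the factor of IL-4 and IL-13, ran from 97.4 to 121 CPM in control and from 91.1 to 121 in ADQ. Its log2 fold change was 0.02 with a 95% interval of -0.18 to 0.23 (edgeR adjusted p = 0.934), the smallest difference of the 10.

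**Figure D3:**
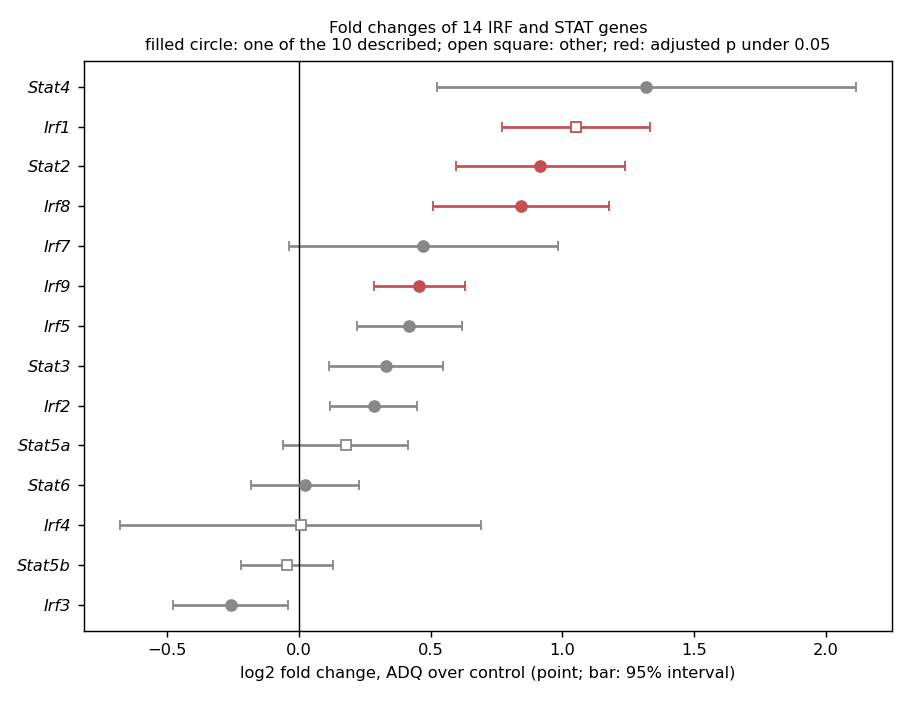
Log2 fold change of ADQ over control (horizontal axis; point with 95% interval) for 14 IRF and STAT genes; filled circles are the 10 genes described, open squares the other 4, red marks adjusted p under 0.05. Irf1, Stat2, Irf8 and Irf9 are red, and the interval of Stat4, the least abundant of the 10, is wide (0.52 to 2.11).

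Of the 4 other family members, Irf1 rose and 3 did not pass. Stat5a and Stat5b, which respond to growth hormone, prolactin and IL-2, were at 20.7 ± 2.64 and 80.9 ± 7.16 CPM in control and 23.4 ± 2.62 and 78.4 ± 4.37 in ADQ (SD, n = 5). Irf4, a factor of B cells, T cells and melanocytes, was at 1.596 ± 0.604 and 1.603 ± 0.379 CPM.

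Levels of different genes were compared per kilobase of exon. In control the order of the mean CPM per kilobase was Stat6 (24.3 ± 2.46), Irf3 (20.4 ± 1.77), Irf9 (14.8 ± 1.31), Stat3 (14.0 ± 1.71), Irf7 (9.14 ± 3.55), Irf5 (8.26 ± 0.846), Irf8 (7.00 ± 1.78), Stat2 (6.23 ± 1.24), Irf2 (4.18 ± 0.215) and Stat4 (0.142 ± 0.0796) (SD, n = 5). The ranges of neighbours overlapped from Irf9 down to Stat2 and did not overlap at the other steps. In ADQ Stat6 (24.7 ± 2.50) was again first, Irf9 (20.3 ± 0.834) ranked 2 in place of Irf3, which ranked 4 (17.0 ± 2.28), and Irf2 (5.09 ± 0.306) and Stat4 (0.356 ± 0.0856) were again last. There, only Irf5 and Irf2, and Irf2 and Stat4, were neighbours without overlap.

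The genes around these factors were grouped by role. Over all genes tested, 0.740% rose with edgeR, and 3.34% passed with DESeq2 and 3.21% with voom. Of 18 cytokines that signal through them 10 could be tested and none passed with edgeR. Of the 10, 4 had an unadjusted p under 0.05, which 13.8% of all 20684 genes had. Of these, Ifng, Il12b and Il27 were higher in ADQ and Ctf1 was lower. With DESeq2 2 rose and with voom 1. Il12b, the shared subunit of IL-12 and IL-23, had the smallest p: 1.17 ± 0.555 CPM in the controls against 2.79 ± 0.68 (SD, n = 5; edgeR adjusted p = 0.114; 0.00624 with DESeq2, 0.0447 with no count filter and 0.0381 without control 5). Ifng had 0 to 0.436 CPM in control and 0.615 to 1.04 in ADQ (edgeR adjusted p = 0.192). Ifnb1 and Il6 were too low to be tested. Ifnb1 had 8 counts in total, none in any control, and ran from 0 to 0.0929 CPM in ADQ. Il6 stayed at or below 0.229 CPM in every library. Among receptor chains 2 of 19 tested rose, and 3 with either DESeq2 or voom. Of the 19, 6 had an unadjusted p under 0.05, all higher in ADQ, against 13.8% of all genes. Il2rg, the common gamma chain used by IL-4 and IL-2, rose 2.01-fold from 10.1 ± 1.93 to 20.3 ± 2.15 CPM (adjusted p = 0.00296), and Il12rb1, which pairs with the IL-12 receptor chain that activates STAT4, rose 5.10-fold (adjusted p = 0.00756). The interferon receptor genes Ifnar1, Ifnar2, Ifngr1, Ifngr2 and Ifnlr1 had log2 fold changes of 0.06 to 0.22, and none passed.

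None of the 4 Janus kinases passed with edgeR, DESeq2 or voom. Jak2 had the smallest p (log2 fold change 0.31, edgeR adjusted p = 0.287). Jak1 and Jak2, 2 of the 4, had an unadjusted p under 0.05, against 13.8% of all genes. Of 17 negative regulators 1 rose, Ptpn6, the phosphatase SHP-1 of blood cells, 1.61-fold from 51.1 ± 2.06 to 82.3 ± 7.25 CPM (SD, n = 5; adjusted p = 0.00136). At an unadjusted p under 0.05, 3 of the 17 were higher and 1 lower in ADQ, against 13.8% of all genes. Socs1 and Socs3 are the feedback inhibitors of interferon and of IL-6 signalling. They were at 16.9 ± 2.00 and 20.8 ± 3.29 CPM in control and 23.3 ± 5.05 and 20.9 ± 2.93 in ADQ. Of 21 sensors, adaptors and kinases upstream of IRF3, IRF5 and IRF7, 1 rose, the nucleic acid sensor Zbp1, 2.50-fold (adjusted p = 0.0121), and 18 had a log2 fold change above 0 (median 0.30). Of the 21, 8 had an unadjusted p under 0.05, against 13.8% of all genes, 3 passed with DESeq2 and 4 with voom. Tbk1, whose kinase phosphorylates IRF3 and IRF7, was at 23.4 ± 2.96 and 31.8 ± 4.91 CPM (adjusted p = 0.124).

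Genes known to be induced through ISGF3, STAT3, STAT4 and STAT6 were counted in the same way. Of 16 genes induced through ISGF3, 2 rose, Rtp4 1.69-fold (adjusted p = 0.00508) and Ifit2 1.46-fold (adjusted p = 0.041, up to 0.132 without 1 library, and lost without any library but control 3 and control 5), and 14 had a log2 fold change above 0 (median 0.46); 5 passed with DESeq2 and 6 with voom. Of the 16, 8 had an unadjusted p under 0.05, all higher in ADQ, against 13.8% of all genes. Among those not called, Ifi44, Rsad2 and Ifit3 had log2 fold changes of 1.21, 0.56 and 0.38. Those of Isg15, Mx2 and Oas1a were 0.18, 0.14 and 0.13. The 2 below 0 were Oas2 at -0.03 and Oasl1 at -0.78 (edgeR adjusted p = 0.383). Of 15 genes induced through STAT3 none passed with edgeR (with DESeq2 1 rose and 2 fell, with voom 1 rose) and the median was 0.00. Of the 15, 5 had an unadjusted p under 0.05, 2 higher and 3 lower in ADQ, against 13.8% of all genes. Fgl2 had the smallest p (log2 fold change 0.91, adjusted p = 0.0742; 7.77e-04 with DESeq2, 0.0073 with voom and 0.0349 without control 3), while Timp1, Serpina3n and Lcn2 had log2 fold changes of -0.71, -0.43 and -1.04. Of 7 genes induced through STAT4 none passed with edgeR (3 at an unadjusted p under 0.05, against 13.8% of all genes, 2 with DESeq2, 3 with voom) and the median was 0.90. Il18rap, a chain of the IL-18 receptor, had the smallest p (log2 fold change 1.76, adjusted p = 0.107; 0.00196 with DESeq2, 0.00559 with voom, and 2.48 with 7.31e-04 without control 5). Of 12 tested genes induced through STAT6 none passed with edgeR, and the median was 0.18. At an unadjusted p under 0.05, 2 were higher and 1 lower in ADQ, against 13.8% of all genes. With DESeq2 1 rose and 1 fell, and with voom 1 rose. Arg1 had the smallest p, with 3.23 ± 3.49 CPM in control against 0.328 ± 0.194 in ADQ (SD, n = 5; edgeR adjusted p = 0.141, 0.0056 with DESeq2). Of 13 genes of partner factors, 10 that act with IRF8 or IRF4 and 3 corepressors that bind IRF2, none passed with edgeR. At an unadjusted p under 0.05, 3 were higher and 1, Klf4, lower in ADQ, against 13.8% of all genes. With DESeq2 1 rose, and with voom 1. Ikzf1, a lymphoid and myeloid zinc finger factor, had the smallest p (3.25 ± 0.843 and 5.65 ± 1.12 CPM, edgeR adjusted p = 0.106; 0.00751 with DESeq2, 0.0428 with voom), and Spi1, which encodes the IRF8 partner PU.1, was at 51.4 ± 5.78 and 62.2 ± 17.0 CPM.

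**Figure D4:**
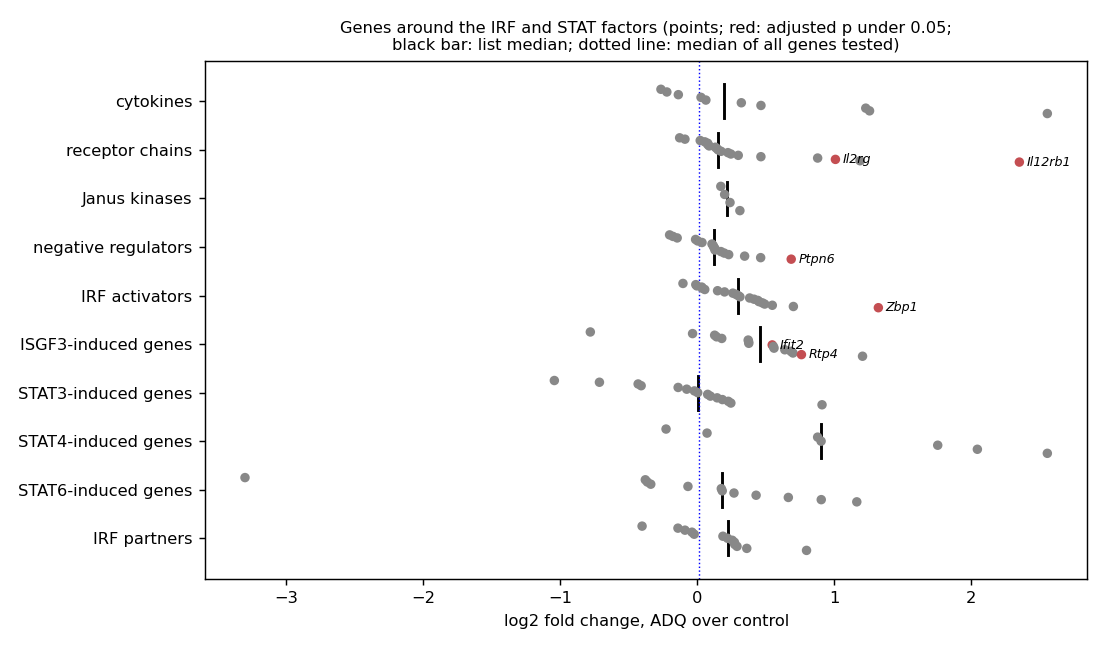
Log2 fold change of ADQ over control (horizontal axis) for the tested genes of 10 lists around the IRF and STAT factors; red points passed, black bars are list medians, and the dotted line is the median of all genes tested, 0.01. The named red points are Il2rg, Il12rb1, Ptpn6, Zbp1, Rtp4 and Ifit2; the medians of the STAT3 and STAT4 lists are 0.00 and 0.90.

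For the 4 genes with the smallest p, the 3 protein-coding genes with the most similar log2 CPM over the 10 libraries were sought among 13763 genes averaging 1 CPM or more. These libraries include the difference between groups, so the likeness is a description of it as well as of the spread within groups. Nearest to Stat2 were Trafd1 (Pearson r 0.99, and 0.96 after the group means were removed), Dtx3l (0.98 and 0.93) and Cd274 (0.98 and 0.92). Nearest to Irf9 were Zbp1 (0.98 and 0.89), Rtp4 (0.98 and 0.84) and Irf1 (0.97 and 0.78), nearest to Irf8 were Cxcl10 (0.98 and 0.94), Ltb (0.98 and 0.93) and H2-DMb2 (0.97 and 0.90), and nearest to Irf5 were Traf1 (0.98 and 0.94), Ncf1 (0.97 and 0.92) and Aoah (0.97 and 0.88). No gene was named for more than 1 of the 4. Trafd1 ordered all 10 libraries exactly as Stat2 did (Spearman rho 1). Of these 11 genes without Irf1, 7 rose over all genes tested, and Cxcl10, Ltb, Traf1 and Ncf1 did not pass. Of all genes tested 0.740% rose. The 11 were picked by likeness, over both groups, to the genes with the smallest p, so the count of 7 is no separate result. Trafd1 lost its call without control 1, control 4 or ADQ 4 (adjusted p 0.053 to 0.0605), and Aoah without control 4, ADQ 2 or ADQ 4 (0.0528 to 0.0649).

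The authors' deposited table lists all 14 genes. Of the 10 described, 7 had an adjusted p under 0.05 in it, Stat2, Irf9, Irf8, Stat4, Irf5, Irf2 and Stat3, against 5.42% of its 15860 genes. In the authors' deposited table Stat2 had a log2 fold change of 1.03 (adjusted p = 7.69e-04), Irf9 0.51 (0.00138) and Irf8 0.83 (0.0033), while Irf7 (0.66), Irf3 (-0.28) and Stat6 (0.03) did not pass there either (adjusted p = 0.0666, 0.0666 and 0.832). Every sign among the 10 was the same as in the test made here.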

How the data were processed

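RNA sequencing counts of 5 control and 5 ADQ samples were used. TRIzol collection, NucleoSpin RNA columns and SMARTer amplification of cDNA are named per the labels' protocols; the build GRCm38 and, as tools, limma, edgeR, DRAGEN and bcl2fastq are named per the submitters' processing notes, with no roles. Annotation, strand setting and filters of the counting are not given. The authors deposited whole-number raw counts by Ensembl identifier, of which 287 repeats were dropped. Their deposited comparison gives log2 CPM and log2 fold changes, raw and adjusted p-values, a moderated t and a log odds score, and a signed linear fold that was not used. No column of samples was left unused (0).

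The main test was edgeR's quasi-likelihood test (version 4.0.16, with R 4.3.3) with filterByExpr defaults (minimum count 10, minimum total 15), TMM scaling, a robust fit on group and Benjamini-Hochberg adjustment at 0.05. A standard error is the absolute log2 fold change divided by the root of the F statistic. Ratios are differences of log2(CPM + 0.5), tested by exact two-sided permutation. Tests were checked on simulated data. Alternatives were other scalings and filters, DESeq2 1.42.0, voom in limma 3.58.1, a non-robust fit, a replicate block, a pseudocount of 0.1 and leaving out each library. The smallest chi-square per degree of freedom between libraries was 33.9, so none repeats another. Positions and merged exon lengths are from GENCODE M21 (GRCm38), which holds 99.5% of the identifiers. The genes and lists were chosen with earlier results of these data known. Of the family genes 2, and 1 ratio, are not reported here. The naming rule took the family members, from each list the genes that passed (at most 6) or else the smallest p, and the 3 most similar genes for the 4 members with the smallest p; other genes were named after their values were seen.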

Additional observations from a re-analysis of the deposited data

Results flagged for a closer look

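Each group of 5 libraries was examined for a library far from the rest, by the gap to its nearest neighbour over the whole range, in 14 family genes and 6 ratios. Of 40 groups 1 held such a library, and chance flags about 5% of groups. The log2 ratio of Irf5 to macrophage markers was -2.53 in control 1, with the other controls at -2.29 to -2.20.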

How the results depend on the processing

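The 10 genes were refitted under 19 alternatives and the ratios under 12. With a count of 171 genes called as reported, leaving out 1 library gave 78 to 357, DESeq2 773, voom with quality weights 664 and the replicate block 694; the other scalings, filters and the non-robust fit stayed within 1.5 times of 171. The share of calls that were higher was 89.5% as reported and 65.5%, 77.0% and 56.5% under those 3. Of the 10 genes, 3 were called as reported, 1 to 5 without 1 library, 5 with DESeq2, 7 with voom and 5 with the replicate block, where the numbers are not taken as a pairing: same-numbered deviations correlated by -0.11 to 0.25, and 1 of 5 controls matched its own number best. Irf5 and Stat3 passed with the block (adjusted p = 0.0286 and 0.0269), as did Fgl2 (6.97e-04), Ikzf1 (0.0378) and Il12b (0.0494). Library size alone shifted the median of all genes from 0.01 to 0.10.

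With 5 blocks the smallest sign-flip p for a ratio is 0.0625, so none could pass: Irf1 over Irf2 gave 0.79 and Irf8 over macrophage markers 0.56 (adjusted p = 0.0875 each) with the replicate block. Without 1 library the differences ran from 0.66 to 0.99 for Irf7 over Irf3, 0.72 to 0.88 for Irf1 over Irf2, 0.49 to 0.66 for Irf8, 0.055 to 0.15 for Irf5 and 0.11 to 0.40 for Irf7 over macrophage markers, and -0.54 to -0.26 for Stat4 over T and NK cell markers, which was -0.18 with a pseudocount of 0.1 (adjusted p = 0.556).

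Signs turned in 3 genes near 0. Stat6 was at -0.0021, -0.0096 and -0.019 without control 4, control 5 and ADQ 5, and -0.019 to 0.079 over all leave-one-out fits. Stat5b was at 0.036 with library size alone, 0.0029 with voom and 0.0074 without control 3 (-0.076 to 0.0074 over leave-one-out fits). Irf4 was at -0.0027 with RLE scaling, -0.0043 with DESeq2, -0.015 with voom, and at -0.0009, -0.21, -0.061 and -0.11 without control 2, control 5, ADQ 2 and ADQ 3. The cause was not tested. Depth limits Stat4 and Irf4, which had as few as 12 and 27 counts.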
